A study of Mus musculus with 48 samples.

Results

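The spliceosome, SR and hnRNP genes are a set of 48 genes that encode parts of the machinery that splices pre-mRNA. They were taken as 12 SR proteins, 13 heterogeneous nuclear ribonucleoproteins (hnRNPs) and 23 core spliceosome genes. A gene was measured on the brightest probe set whose annotation held its symbol alone, and 46 of the 48 had such a probe set, of 18964 genes measured in all. Srsf7 was on no probe set listed with its symbol, Snrpa was only on a probe set listed with several symbols, and neither was analysed here. All 46 measured members (11 SR proteins, 13 hnRNPs and 22 core genes) passed the filter on dim probe sets, as did 11565 genes in all.

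The data were 48 Affymetrix arrays of cultured 4T1 cells, a mouse mammary carcinoma line of balb/c origin. The parental lines 4T1-GFP/fL (green fluorescent protein and firefly luciferase) and 4T1-mCh/rL (mCherry and Renilla luciferase) had 4 arrays each. The other 40 arrays were from 13 sub-clones grown back in culture from tumors, with 3 arrays each or, for MFP tumor 1, 4 arrays. MFP sub-clones came from 4T1-GFP/fL tumors of the mammary fat pad (tumors 1 and 2, day 28). AxLN sub-clones came from 4T1-mCh/rL cells placed in the axillary lymph node (tumors 1 and 2, days 7 and 14), and AxLN-LuM sub-clones from lung metastases of such nodes (metastasis 1 on days 14, 36 and 43, and metastasis 5 on day 14). TV-LuM sub-clones came from lung metastases of cells injected into the tail vein (metastases 1 and 2 on day 14, metastasis 1 on day 38), and their labels did not name the reporter line. All RNA came from cells in culture, so the levels are those of the sub-clones after growth ex vivo. The labels name no treatment, but by the study's methods the sub-clones were grown out under 6-thioguanine, which kills host cells, and no such step is described for the parental lines. That selection and the growth in the mouse cannot be told apart in a comparison of a sub-clone with the parental lines. Replicates of a site can share a tumor number: AxLN tumor 2 labels a sub-clone on each of its days, and the AxLN-LuM sub-clones used were all labelled metastasis 1. The titles name a different source sample for each of these days, so a shared number need not mean a shared tumor. The titles marked as removed all 3 arrays of AxLN tumor 1 day 14, all 3 of AxLN-LuM 5 day 14 and 1 array of MFP tumor 1; these 7 arrays were kept out of comparisons between sites. The values of single sub-clones hold all their arrays.

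In splicing, the U1 and U2 snRNPs mark the ends of an intron, and the U4/U6.U5 tri-snRNP then joins and is rearranged into the catalytic spliceosome. SR proteins bind exons and recruit these particles, whereas hnRNPs coat the nascent transcript and often oppose them, so the balance of both families helps to set which exons are kept. Many SR and hnRNP genes hold down their own mRNA through exons that send the transcript to nonsense-mediated decay, and all 3 families are expressed in most dividing cells.

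The array medians lay between 8.53 and 9.15 intensity units. Arrays were run on 2 plates of 24, so each value is given either as log2 intensity or as a difference, the log2 intensity minus the mean of the parental arrays on the same plate. All 8 epithelial markers were above the filter (Krt18 highest at a mean log2 of 11.49), against 2 of 13 leukocyte, 3 of 9 fibroblast, 0 of 7 endothelial and 2 of 7 lung epithelium markers. The median difference over all genes tested stayed between -0.04 and 0.04 in every sub-clone.

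Across the 13 sub-clones the splicing genes sat mostly at or below the parental level. Over the 46 members, the median difference was lowest in AxLN-LuM 5 day 14 (-0.30), AxLN tumor 2 day 7 (-0.27), AxLN tumor 2 day 14 (-0.26) and AxLN tumor 1 day 7 (-0.23). It was 0.04 in AxLN-LuM 1 day 43 and 0.03 in both AxLN-LuM 1 day 14 and AxLN tumor 1 day 14, the 3 sub-clones with a median above 0. The other 6 sub-clones lay between -0.17 and -0.05. The 13 sub-clones thus did not divide by site alone, since AxLN tumor 1 on days 7 and 14 lay apart, as did AxLN-LuM 1 and 5 on day 14. Both exceptions, AxLN tumor 1 day 14 and AxLN-LuM 5 day 14, are sub-clones that the titles mark as removed. Without them, the AxLN medians were below those of every other sub-clone. Each sub-clone was compared with the parental lines by limma over all 48 arrays, and because its arrays are cultures of 1 sub-clone, those p-values measure the spread between cultures and not between tumors. The 13 comparisons share the parental arrays of their plate, so their results are not independent of each other.

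**Figure D1:**
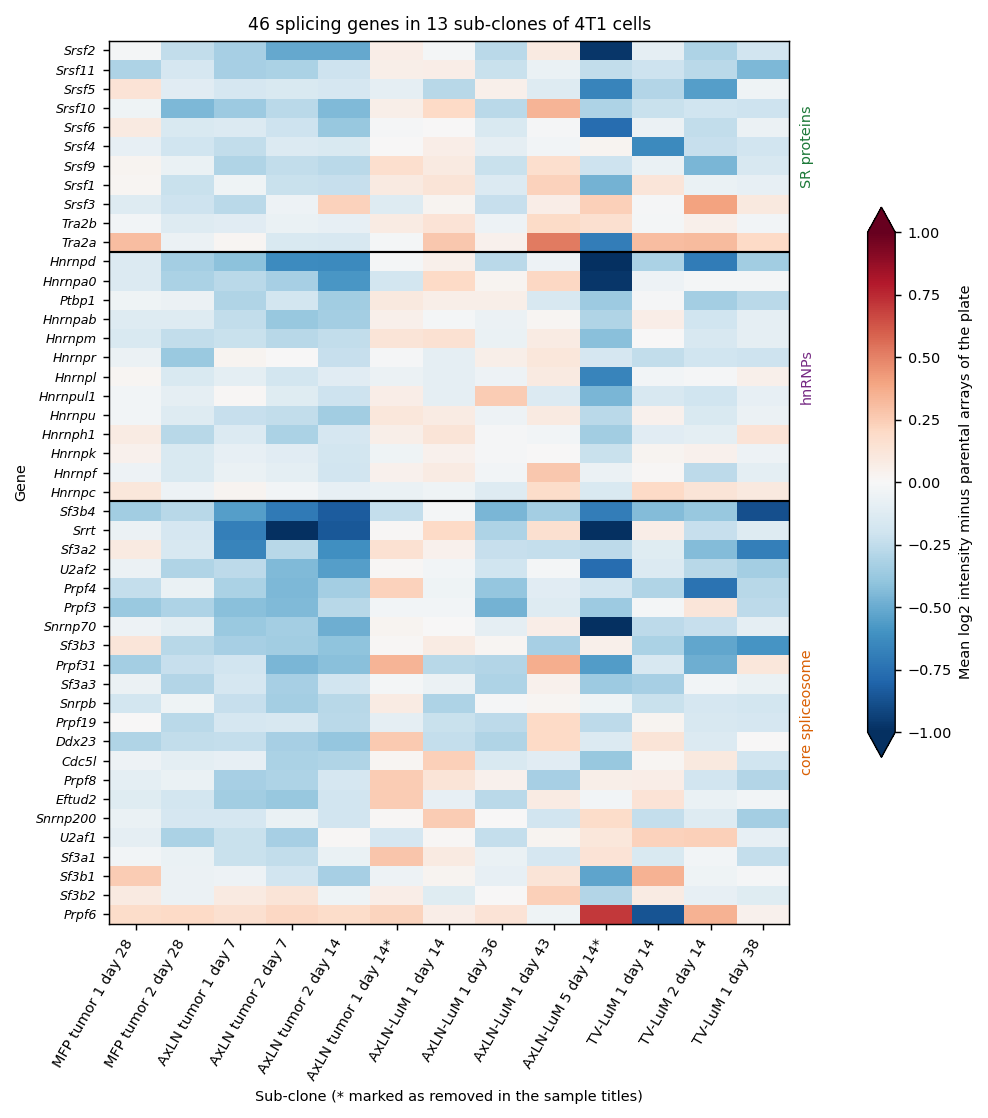
Heat map of the mean log2 intensity minus that of the parental arrays of the same plate for the 46 measured members (rows, by class) in the 13 sub-clones (columns, those marked as removed with an asterisk). Most cells of the 3 AxLN sub-clones used and of AxLN-LuM 5 day 14 are below 0, and Srrt in the latter, at -2.42, is beyond the end of the colour scale.

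Srrt, which binds the nuclear cap-binding complex and links capped RNA to its processing, had the widest range of all members (2.62). Its log2 intensity was 9.29 to 9.43 on the 4T1-GFP/fL arrays and 9.26 to 9.33 on the 4T1-mCh/rL arrays. It was 8.66, 8.67 and 8.67 in AxLN tumor 1 day 7, 8.22, 8.28 and 8.37 in AxLN tumor 2 day 7, and 8.39, 8.45 and 8.50 in AxLN tumor 2 day 14. All 9 of these arrays were below every parental array and below every array of MFP (9.09 to 9.32) and of AxLN-LuM 1 (9.01 to 9.58). Against the parental lines Srrt fell by 0.68 (SE 0.04, adjusted p = 1.34e-14), 1.01 (SE 0.04, adjusted p = 1.17e-19) and 0.85 (SE 0.04, adjusted p = 1.78e-17) on the log2 scale, to 0.624, 0.497 and 0.555 of the parental level. In AxLN-LuM 5 day 14 the arrays read 6.82, 6.83 and 6.99, a fall of 2.42 (SE 0.04, adjusted p = 2.35e-30) to 0.187 of the parental level. The arrays of AxLN tumor 1 day 14 read 9.32, 9.36 and 9.38, within the parental range. Srrt is counted here among the core genes by the rule, although it acts on capped RNA rather than within a snRNP.

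Snrnp70, the U1 protein that contacts SR proteins at the start of an intron, had a range of 1.08. Its log2 intensity was 9.89 to 9.97 on the 8 parental arrays. The AxLN arrays read 9.48, 9.55 and 9.63 (tumor 1 day 7), 9.53, 9.59 and 9.60 (tumor 2 day 7) and 9.36, 9.41 and 9.52 (tumor 2 day 14), with no overlap with MFP (9.79 to 9.95) or AxLN-LuM 1 (9.79 to 10.03). It fell by 0.37 (SE 0.05, adjusted p = 2.04e-07) in AxLN tumor 1 day 7 and by 0.49 (SE 0.05, adjusted p = 6.02e-10) in AxLN tumor 2 day 14. In AxLN-LuM 5 day 14 (8.82, 8.90 and 8.98) it fell by 1.01 (SE 0.05, adjusted p = 2.09e-18), to 0.496 of the parental level. Its call was lower in 6 sub-clones and higher in none.

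**Figure D2:**
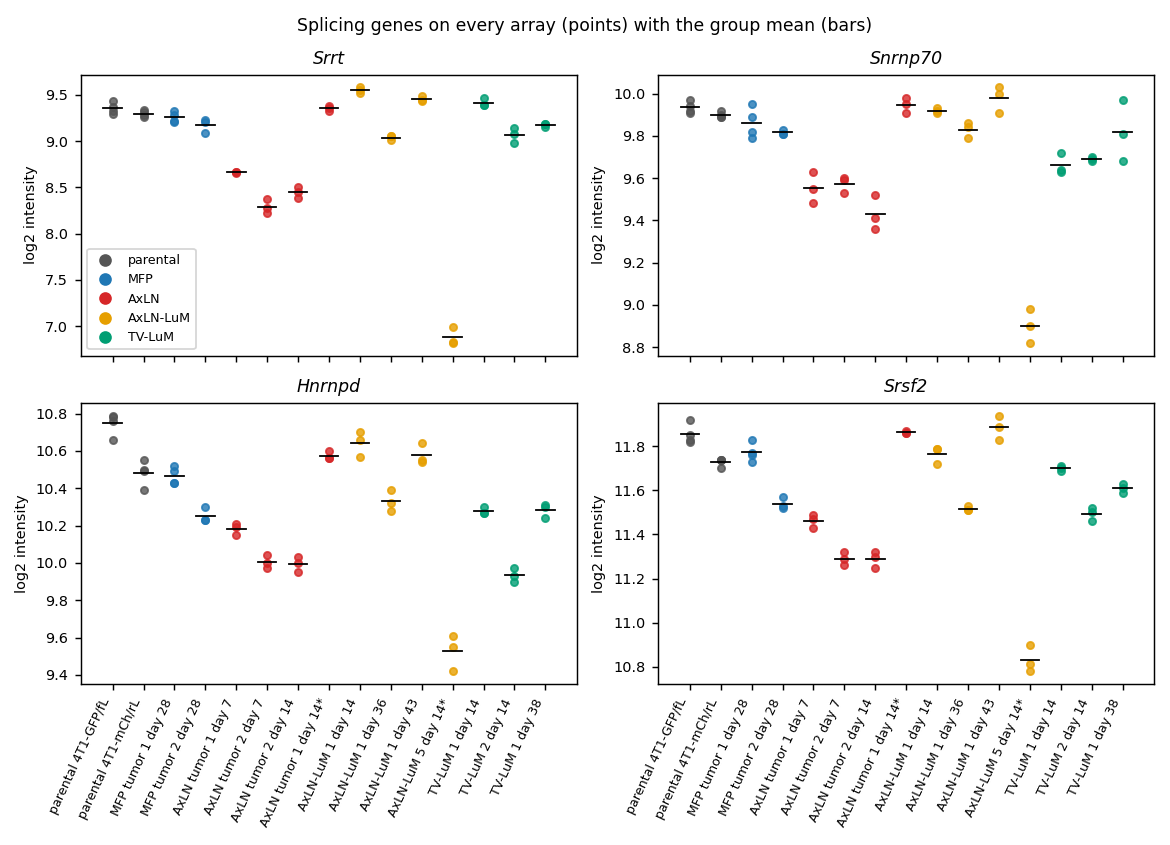
Log2 intensity (vertical axis, 1 panel per gene) of Srrt, Snrnp70, Hnrnpd and Srsf2 on every array, as points, with bars at the group means, for the parental lines and each sub-clone; no plate mean is subtracted here. In all 4 genes the points of AxLN-LuM 5 day 14 are the lowest, and the 9 points of the AxLN sub-clones not marked with an asterisk lie below those of MFP.

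Promoter sequence was available from RefSeq (GRCm38.p6) for 41 of the 46 members, in 56 windows of the 250 bases before an annotated start. Those windows had a median GC content of 59.6%, against 52.4% over 32851 windows of all genes. They were searched on both strands for NRF1 (GCATGCGC), the E-box of Myc and Max (CACGTG), E2F (TTTGGCGC and TTTCCCGC), ETS (ACTTCCGG), the CCAAT box (ATTGGC), CRE (TGACGTCA) and YY1 (AAGATGGCG). The following stretches are shown because these members had the widest or among the widest ranges of their class; each is 5′ to 3′ on the gene's strand, ends before the outermost annotated start of its gene, and has motif matches in capitals. The Srrt stretch is chr5:137307717-137307924 (minus strand), the Snrnp70 stretch chr7:45395743-45395992 (minus strand), the Hnrnpa0 stretch chr13:58128557-58128806 (minus strand) and the Srsf6 stretch chr2:162931258-162931507 (plus strand).
Srrt: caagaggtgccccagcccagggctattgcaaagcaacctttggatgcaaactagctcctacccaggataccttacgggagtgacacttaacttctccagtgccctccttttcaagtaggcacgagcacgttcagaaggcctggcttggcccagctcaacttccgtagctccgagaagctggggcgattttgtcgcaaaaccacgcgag
Snrnp70: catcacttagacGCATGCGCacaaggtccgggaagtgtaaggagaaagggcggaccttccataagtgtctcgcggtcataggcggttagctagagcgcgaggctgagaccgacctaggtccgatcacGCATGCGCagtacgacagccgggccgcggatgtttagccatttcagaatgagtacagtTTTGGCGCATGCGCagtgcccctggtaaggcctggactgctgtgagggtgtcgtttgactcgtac
Hnrnpa0: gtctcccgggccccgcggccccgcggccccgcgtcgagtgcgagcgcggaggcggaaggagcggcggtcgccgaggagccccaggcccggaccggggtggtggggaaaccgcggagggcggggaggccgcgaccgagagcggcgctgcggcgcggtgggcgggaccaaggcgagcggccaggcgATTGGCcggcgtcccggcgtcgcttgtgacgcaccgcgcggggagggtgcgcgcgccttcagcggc
Srsf6: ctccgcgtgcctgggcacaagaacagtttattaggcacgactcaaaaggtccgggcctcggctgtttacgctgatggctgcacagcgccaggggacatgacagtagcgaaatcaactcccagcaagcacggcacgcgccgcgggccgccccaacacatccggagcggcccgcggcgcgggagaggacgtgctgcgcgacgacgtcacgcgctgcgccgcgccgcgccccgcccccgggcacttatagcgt
The stretches of Srrt and Srsf6 held none of these letter strings, Snrnp70 held NRF1 strings in 3 places (the E2F string TTTGGCGC overlaps the third), and Hnrnpa0 held a CCAAT box. Over the members, a CCAAT box was in 28.6% of windows against 13.5% of all windows, the ETS string in 16.1% against 2.88%, and the E2F string TTTCCCGC in 12.5% against 0.895%. The NRF1 string was in 5.36% against 2.26%, the E-box in 7.14% against 6.02%, the E2F string TTTGGCGC in 1.79% against 0.417%, CRE in 3.57% against 1.55% and YY1 in 1.79% against 0.606%. No test was made of these shares, and the GC content of both sets of windows differed, as given above.

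Among the other core genes, those of the U2 snRNP and the branch site differed from each other. Sf3b2, of the SF3B complex, was at 0.09, 0.13 and -0.04 in AxLN tumor 1 day 7, tumor 2 day 7 and tumor 2 day 14, and U2af1, which reads the end of the intron, at -0.22, -0.33 and 0.01. Sf3a2, a subunit of the SF3A complex of U2, read 9.66 to 10.00 on the parental arrays and was at -0.66, -0.28 and -0.61 in AxLN tumor 1 day 7, tumor 2 day 7 and tumor 2 day 14, with adjusted p = 7.86e-14 for the first and 3.54e-13 for the third. It was as low in TV-LuM 1 day 38 (9.02, 9.06 and 9.14; -0.68, adjusted p = 2.03e-14), and its call was lower in 10 of 13 sub-clones. Sf3b3, a scaffold of SF3B, was between -0.40 and -0.33 in those 3 AxLN sub-clones and lowest in TV-LuM 1 day 38 (-0.59, SE 0.04, adjusted p = 3.16e-15). On the probe set used, Sf3b3 thus separated the lung metastases of tail vein origin (-0.32, -0.52 and -0.59) from AxLN-LuM 1 on days 14 and 36 (0.08 and 0.02) but not from day 43 (-0.33). A dimmer probe set (mean log2 4.77) read the other way, at 0.31, 0.48 and 0.36 against 0.12, 0.14 and -0.08. This separation, and the later results for Sf3b3, therefore rest on the brighter probe set alone. Sf3b4 was between -0.83 and -0.55 in AxLN, on a dim probe set (parental median log2 4.23), and U2af2, which reads the polypyrimidine tract, between -0.55 and -0.26. Sf3a3 and Snrpb, a Sm protein, moved least among the core genes, with ranges of 0.40 and 0.42. Sf3a1 was highest in AxLN tumor 1 day 14 (0.28, SE 0.05, adjusted p = 1.55e-06).

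The genes of the tri-snRNP and of the Prp19 complex did not move as a block. Prpf6, a bridge between U5 and U4/U6, was the exception to the general direction: it was higher in 9 sub-clones and lower in 1. Its log2 intensity was 8.87 to 9.08 on the parental arrays, 9.66, 9.66 and 9.67 in AxLN-LuM 5 day 14 (0.71, SE 0.06, adjusted p = 3.58e-13) and 8.01, 8.15 and 8.16 in TV-LuM 1 day 14 (-0.86, SE 0.06, adjusted p = 2.15e-14). The last 3 arrays lay below every other array of the series. Prpf3, a U4/U6 protein, led MFP tumor 1 (-0.37, adjusted p = 1.19e-11) and AxLN-LuM 1 day 36 (-0.47, adjusted p = 2.92e-11) by lowest p among the members. Prpf4, also of U4/U6, fell by 0.74 in TV-LuM 2 day 14 (SE 0.05, adjusted p = 1.14e-14). Prpf31, the protein that holds the tri-snRNP together, was lower in 10 sub-clones and higher in 2, from -0.56 in AxLN-LuM 5 day 14 to 0.36 in AxLN-LuM 1 day 43 (adjusted p = 2.97e-05). The U5 genes Prpf8, Snrnp200 and Eftud2 were called lower in 7, 7 and 6 sub-clones and higher in 2 each; Prpf19 and Cdc5l of the Prp19 complex were lower in 9 and 4, and the helicase gene Ddx23 was lower in 9 and higher in 3.

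Most SR protein genes were also low in the AxLN sub-clones used. Srsf2, an SR protein that binds exonic enhancers, read 11.70 to 11.92 on the 8 parental arrays. It read 11.43, 11.47 and 11.49 in AxLN tumor 1 day 7, 11.26, 11.29 and 11.32 in AxLN tumor 2 day 7, and 11.25, 11.30 and 11.32 in AxLN tumor 2 day 14. None of these 9 arrays overlapped MFP (11.52 to 11.83) or AxLN-LuM 1 (11.51 to 11.94), although the nearest arrays were close. Srsf2 fell by 0.51 in both tumor 2 sub-clones (SE 0.03, adjusted p = 3.71e-15 on day 7 and 6.57e-15 on day 14) and by 0.97 in AxLN-LuM 5 day 14 (SE 0.03, adjusted p = 3.97e-23). Srsf6 fell by 0.76 in AxLN-LuM 5 day 14 (adjusted p = 2.00e-18) and by 0.38 in AxLN tumor 2 day 14 (adjusted p = 1.79e-10). Srsf5 was lowest in AxLN-LuM 5 day 14 (-0.66) and TV-LuM 2 day 14 (-0.55), and Srsf10 ranged from -0.45 in MFP tumor 2 to 0.34 in AxLN-LuM 1 day 43. Srsf11 was lower in 10 sub-clones and higher in none, between -0.45 and 0.07.

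The Transformer-2 genes encode SR-like proteins that bind purine-rich exon enhancers. Tra2a read 9.69 to 9.83 on the 4T1-GFP/fL arrays and 9.93 to 9.98 on the 4T1-mCh/rL arrays. It rose by 0.52 in AxLN-LuM 1 day 43 (10.35, 10.40 and 10.40; SE 0.04, adjusted p = 1.48e-12) and by 0.27 in AxLN-LuM 1 day 14 (adjusted p = 9.99e-07), and it fell by 0.69 in AxLN-LuM 5 day 14 (9.13, 9.19 and 9.20; adjusted p = 1.39e-16). It was at 0.02, -0.15 and -0.16 in the AxLN sub-clones used. Its call was higher in 6 sub-clones and lower in 3. Tra2b was at -0.11, -0.07 and -0.08 in the same AxLN sub-clones, had the smallest range of the SR class (0.32) and was higher in 3 and lower in 2. Srsf3 was called lower in no sub-clone and higher in 1 (TV-LuM 2 day 14, 0.40), although it was below 0 in 7. Its arrays spread widely in some sub-clones, with a standard deviation of 0.39 in AxLN-LuM 1 day 43. Srsf4 fell by 0.64 in TV-LuM 1 day 14 (6.60, 6.77 and 6.79; adjusted p = 8.20e-11), where its arrays lay below all others.

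Hnrnpd, or AUF1, which binds AU-rich elements and promotes mRNA decay, was the hnRNP called lower most often (10 sub-clones, higher in none). It read 10.66 to 10.79 on the 4T1-GFP/fL arrays and 10.39 to 10.55 on the 4T1-mCh/rL arrays. The AxLN arrays read 10.15, 10.19 and 10.21 (tumor 1 day 7), 9.97, 10.00 and 10.04 (tumor 2 day 7) and 9.95, 10.00 and 10.03 (tumor 2 day 14). They lay below MFP (10.23 to 10.52) and AxLN-LuM 1 (10.28 to 10.70) without overlap. Hnrnpd fell by 0.41, 0.63 and 0.64 in these sub-clones (SE 0.04, adjusted p = 1.47e-09, 3.10e-14 and 3.54e-14), by 0.70 in TV-LuM 2 day 14 (SE 0.04, adjusted p = 3.46e-15) and by 1.10 in AxLN-LuM 5 day 14 (SE 0.04, adjusted p = 3.80e-21). A second probe set for Hnrnpd had the same sign in 11 of 13 sub-clones.

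Hnrnpa0, an hnRNP of the A/B type that also binds AU-rich mRNA, had the widest hnRNP range (1.17). Its arrays read 9.34 to 9.53 in the parental lines, 8.77 to 9.17 in the 3 AxLN sub-clones used, 9.03 to 9.43 in MFP and 9.38 to 9.69 in AxLN-LuM 1. AxLN and AxLN-LuM 1 did not overlap, whereas AxLN and MFP did. It fell by 0.58 in AxLN tumor 2 day 14 (SE 0.05, adjusted p = 4.36e-11) and by 0.97 in AxLN-LuM 5 day 14 (8.43, 8.47 and 8.49; SE 0.05, adjusted p = 2.83e-17). Hnrnpl (CA repeats) and Hnrnpul1 were lowest in AxLN-LuM 5 day 14, at -0.66 and -0.46. Their other sub-clones lay between -0.18 and 0.09 and between -0.21 and 0.25. The highest value of Hnrnpul1 was in AxLN-LuM 1 day 36, with the next at 0.07. Hnrnpk and Hnrnpc had the smallest ranges (0.26 and 0.35), and Hnrnpc was the hnRNP called higher most often (4 sub-clones, lower in 2). Ptbp1, the polypyrimidine tract repressor, was lower in 7 and higher in none. Where a gene had a second probe set, it did not always follow the first: those of Hnrnpu and Sf3b3 had the same sign in 5 of 13 sub-clones.

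Set side by side, the lowest class median was that of AxLN-LuM 5 day 14 for SR proteins and hnRNPs and that of AxLN tumor 2 day 7 for core genes. In AxLN tumor 1 day 7 the class medians were -0.25 for SR proteins, -0.14 for hnRNPs and -0.24 for core genes. In AxLN tumor 2 they were -0.21, -0.18 and -0.33 on day 7 and -0.21, -0.23 and -0.29 on day 14. AxLN-LuM 5 day 14 had -0.31, -0.35 and -0.26. Core genes were thus the lowest class in AxLN tumor 2 and the highest in AxLN-LuM 5 day 14. In AxLN-LuM 1 the medians were 0.07, 0.05 and -0.01 on day 14, -0.15, -0.03 and -0.22 on day 36, and 0.09, 0.08 and 0.00 on day 43. In AxLN-LuM 1, day 36 was thus below days 14 and 43 in each class. Each day was 1 sub-clone from its own source sample, so time and sample cannot be told apart here. MFP tumor 1 had -0.02, -0.04 and -0.06 and MFP tumor 2 had -0.17, -0.15 and -0.17. The TV-LuM sub-clones had -0.07, -0.01 and -0.13 (1 day 14), -0.23, -0.16 and -0.15 (2 day 14) and -0.08, -0.08 and -0.17 (1 day 38).

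**Figure D3:**
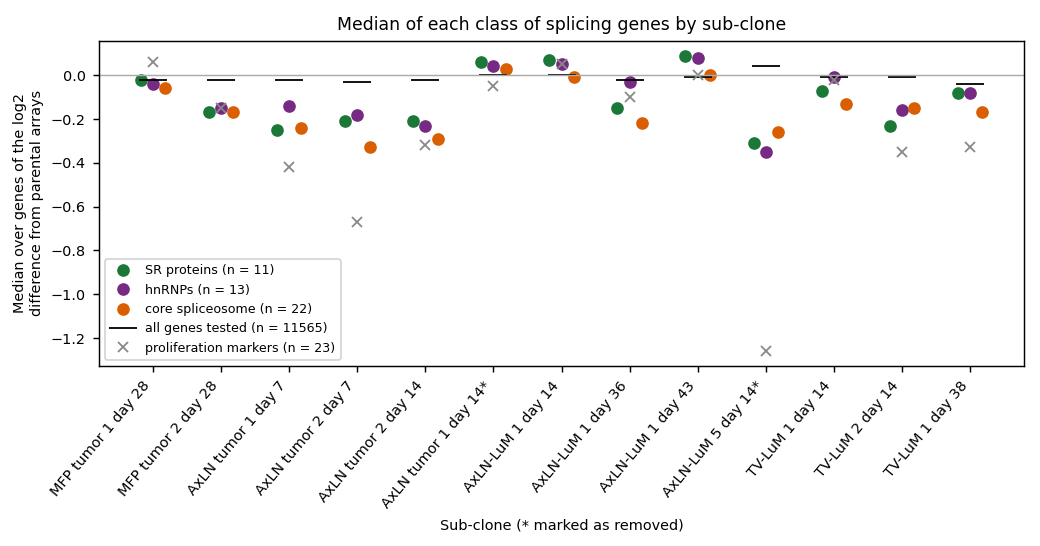
Median over the genes of each class of the log2 difference from the parental mean of the same plate (vertical axis) in each sub-clone (horizontal axis), beside the median over proliferation markers and over all genes tested. The 3 splicing classes lie together in most sub-clones. Proliferation markers lie below them in all AxLN sub-clones, in TV-LuM 2 day 14 and TV-LuM 1 day 38, and furthest in AxLN-LuM 5 day 14 (-1.26).

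Counts of calls can be read only against how many genes changed in all, which was many in every sub-clone. In AxLN tumor 2 day 14, 39 of 46 members were lower and 1 was higher, where 26.1% of all genes were lower and 24.6% higher. In AxLN tumor 2 day 7, 38 were lower and 2 higher, against 29.2% and 24.3% of all genes. AxLN tumor 1 day 7 had 33 lower and 1 higher, against 25.6% and 22.0%. In these 3 sub-clones lower calls among the members were thus well above the background share and higher calls well below it. AxLN-LuM 5 day 14 had 34 lower and 4 higher against 26.7% and 35.6%, and MFP tumor 2 had 29 lower and 1 higher against 19.5% and 18.9%. TV-LuM 2 day 14 had 25 lower and 6 higher, against 26.9% and 26.6%. TV-LuM 1 day 38 had 21 lower and 2 higher (27.9% and 23.4%). AxLN-LuM 1 day 36 had 18 lower and 2 higher (24.0% and 22.2%), and TV-LuM 1 day 14 had 17 lower and 7 higher (21.2% and 19.3%). In the remaining sub-clones the share of lower calls was below that of all genes. MFP tumor 1 had 12 lower and 8 higher, against 28.0% and 26.0%. AxLN-LuM 1 day 14 had 6 lower and 10 higher (21.7% and 23.5%) and AxLN-LuM 1 day 43 had 9 lower and 16 higher (22.5% and 19.0%). AxLN tumor 1 day 14 had 1 lower, Hnrnpa0, and 11 higher, against 14.5% and 17.0%. Against the parental line of the same reporter, MFP tumor 1 had 17 lower and 4 higher (26.8% and 25.1% of all genes), AxLN tumor 1 day 7 had 23 lower and 0 higher (21.0% and 17.5%), and AxLN-LuM 1 day 43 had 3 lower and 14 higher (17.7% and 14.1%). By gene, 40 members were called lower in more sub-clones than higher and 5 the reverse, against 43.7% and 41.8% of all genes. Of the members, 29 were lower in 6 or more sub-clones (22.6% of all genes), and 2, Prpf6 and Tra2a, were higher in 6 or more (19.7% of all genes).

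**Figure D4:**
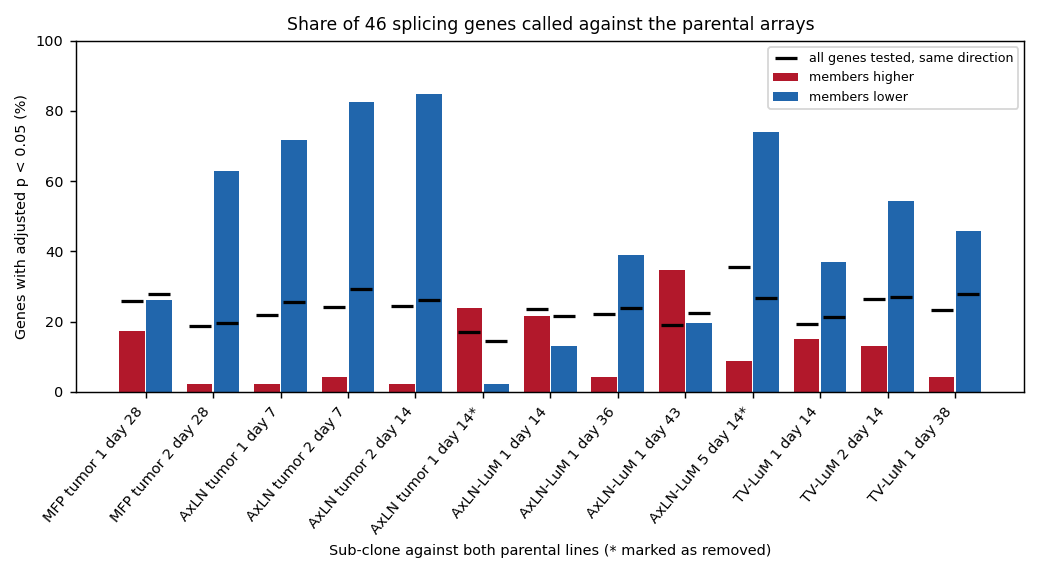
Share of the 46 members (bars) called lower or higher than the parental lines in each sub-clone (limma, adjusted p threshold of 0.05), in percent, beside the share of all 11565 genes called in the same direction. Lower calls exceed the share over all genes most in AxLN tumor 2 day 14 (39 of 46 members against 26.1%).

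Proliferation markers moved with the splicing genes. In AxLN tumor 1 day 7, tumor 2 day 7 and tumor 2 day 14 the median of 23 proliferation markers was -0.42, -0.67 and -0.32, and 20, 23 and 20 of them were lower. In AxLN-LuM 5 day 14 it was -1.26, with 22 lower. The summed intensity of the list ranged from 15935 to 20660 on the AxLN arrays used and from 11320 to 11799 in AxLN-LuM 5 day 14, against 24569 to 26732 on the parental arrays, 23141 to 27000 on the MFP arrays, 23761 to 26276 in AxLN-LuM 1 and 20126 to 24959 in TV-LuM. No marker of the list was near the filter, the dimmest having a mean log2 of 7.45. The paper reports from a growth assay that its AxLN sub-clones divided much faster than those of MFP, AxLN-LuM and tail vein origin. The low marker levels in AxLN and that assay thus point in opposite directions, for a reason that was not tested. The part of growth rate in the splicing differences was not tested. TV-LuM 1 day 38 had 17 proliferation markers lower and 0 higher, with member medians nearer the parental level than in AxLN. Leukocyte markers summed to 140 to 380 on the AxLN arrays used, 118 to 178 on the parental arrays and 290 to 326 in AxLN-LuM 5 day 14. Cd68, at a mean log2 of 6.61, was the brightest of them, and 2 of 13 were above the filter. The median difference over the 13 was -0.11, -0.03 and -0.02 in the AxLN sub-clones used and -0.09 in AxLN-LuM 5 day 14. In each of these, 8 of the 13 were below 0, as in parental 4T1-GFP/fL. Most of the list was below the filter, so these signs cannot show whether leukocyte markers rose. The part of leukocytes was not tested.

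The study compared sub-clones between sites to ask what marks cells that grew in the lymph node and cells that went on to the lung. With the sub-clone as the replicate (2 MFP, 3 AxLN, 3 AxLN-LuM), limma called 0% of the 11565 genes when AxLN was set against MFP, AxLN-LuM against AxLN, AxLN-LuM against MFP, or AxLN against the mean of MFP and AxLN-LuM, so no member passed either. The fit that added 3 TV-LuM sub-clones called 0% between TV-LuM and AxLN-LuM. Unadjusted p was under 0.05 for 804, 1376, 464, 1280 and 1167 genes in the order given, among them 4, 12, 1, 11 and 3 members. The differences between sites that follow are therefore descriptions. Day also goes with site: the sub-clones used were from day 28 for MFP, days 7 and 14 for AxLN, and days 14, 36 and 43 for AxLN-LuM. Site and time in the mouse thus cannot be told apart between them. Most of these comparisons share the AxLN or the AxLN-LuM sub-clones, so they are not independent of each other.

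From MFP to AxLN, 42 of 46 members had a negative difference, with class medians of -0.13 for SR proteins, -0.07 for hnRNPs and -0.16 for core genes. Srrt had the lowest p (-0.73, SE 0.19, adjusted p = 0.694 by limma), then Sf3a2 (-0.47) and Snrnp70 (-0.33). In 17 members every AxLN sub-clone was below every MFP sub-clone, which held for 17.7% of all genes, and in 0 members was every AxLN sub-clone above (14.3% of all genes). Site and reporter line go together here, MFP cells carrying GFP/fL and AxLN cells mCh/rL. Taken against the line of its own reporter, the difference had class medians of 0.00, -0.03 and -0.07. With all 13 sub-clones, AxLN tumor 1 day 14 included, the class medians were -0.01 for SR proteins, -0.05 for hnRNPs and -0.04 for core genes.

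From AxLN to AxLN-LuM, where both sites carry mCh/rL but differ in day, 43 of 46 members had a positive difference and 3 a negative one. The class medians were 0.21 for SR proteins, 0.24 for hnRNPs and 0.21 for core genes, and the median over all genes was 0.02. Srrt led again (0.86, SE 0.17, adjusted p = 0.231 by limma), followed by Hnrnpa0 (0.54, SE 0.13, adjusted p = 0.264) and Snrnp70 (0.39, SE 0.11, adjusted p = 0.306). The sub-clones of both sites did not overlap, AxLN-LuM higher, in 22 members (6 SR proteins, 10 hnRNPs and 6 core genes), against 10.1% of all genes. They did not overlap in the other direction in 1 member, Prpf6, against 8.12% of all genes. Within plates, Srrt was higher in AxLN-LuM by 0.63 on plate 1 and 1.09 on plate 2, and the median over the members was 0.16 and 0.28. Plate 1 held 1 AxLN and 2 AxLN-LuM sub-clones and plate 2 held 2 and 1, so each of these differences rests on a single sub-clone at one site. The result depends on the sub-clones that were kept out: with all 13, the class medians were 0.08, 0.08 and 0.05, Srrt was at 0.04 and its sub-clones overlapped, AxLN tumor 1 day 14 being at 0.01 and AxLN-LuM 5 day 14 at -2.42. When arrays were counted as replicates 32 members passed (29.6% of all genes), or 29 with a replicate block (27.4% of all genes), or 9 if the sub-clone entered as a random block (4.60% of all genes).

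**Figure D5:**
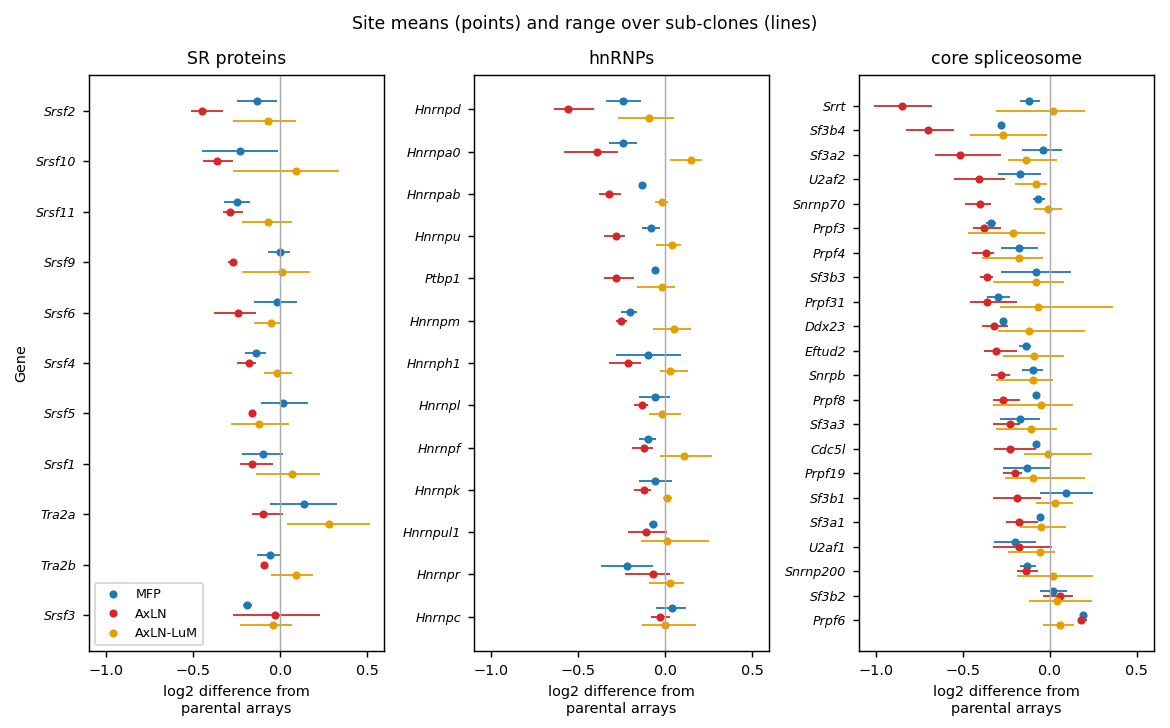
Log2 difference from the parental arrays (horizontal axis) of each of the 46 members (vertical axis, 1 panel per class), with a point at the mean of each site and a line from its lowest to its highest sub-clone (2 MFP, 3 AxLN and 3 AxLN-LuM sub-clones). The AxLN line of Srrt, from -1.01 to -0.68, lies below those of both other sites.

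Between AxLN-LuM and MFP the class medians were 0.14, 0.12 and 0.05, with 39 of 46 members positive. With all 13 sub-clones they were 0.03, 0.04 and 0.01, with 26 positive. Hnrnpa0 had the lowest p (0.39, SE 0.15, adjusted p = 0.999 by limma), then Hnrnpm (0.26) and Hnrnpr (0.25). Sub-clones did not overlap in 4 members with AxLN-LuM higher, all hnRNPs (Hnrnpa0, Hnrnpab, Hnrnpf and Hnrnpm), against 7.37% of all genes, and in 1 with AxLN-LuM lower, Prpf6, against 7.44%. These shares of the members, 8.70% and 2.17%, were near or below the background. Set against the mean of both other sites, AxLN had Srrt at -0.80 (SE 0.15, adjusted p = 0.278), Snrnp70 at -0.36 and Hnrnpd at -0.39, with class medians of -0.15, -0.17 and -0.19. In 11 members all 3 AxLN sub-clones were below all 5 of the other sites, against 5.85% of all genes: Srsf2, Srsf9, Hnrnpab, Hnrnpd, Hnrnpu, Ptbp1, Sf3a2, Sf3b3, Sf3b4, Snrnp70 and Srrt. In 0 members were they all above, against 4.09%. Of the 11, Sf3b3 was a near tie, its highest AxLN and its lowest AxLN-LuM sub-clone both being at -0.33. Sf3b4 was on a dim probe set, and a second probe set of Hnrnpu had the same sign in only 5 of 13 sub-clones.

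The route to the lung was compared by setting TV-LuM against AxLN-LuM, and 37 of 46 members had a negative difference. With all 13 sub-clones, AxLN-LuM 5 day 14 included, 23 were negative and 23 positive, so the direction rested on leaving that sub-clone out. Sf3b3 had the lowest p (-0.40, SE 0.15, adjusted p = 0.466 by limma), then Hnrnpd (-0.36) and Srsf4 (-0.33). In 4 members, Srsf4, Hnrnpa0, Hnrnpd and Hnrnpr, every TV-LuM sub-clone was below every AxLN-LuM sub-clone, against 6.15% of all genes, and in 0 was it above, against 5.51%. The class medians were -0.12, -0.14 and -0.09, but on plate 1 they were -0.01 for SR proteins and -0.04 for hnRNPs, against -0.26 for SR proteins on plate 2. Plate 1 held 1 TV-LuM sub-clone and plate 2 held 1 AxLN-LuM sub-clone used, so each plate value rests on a single sub-clone of one site.

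Between the parental lines, 39 of 46 members were lower in 4T1-mCh/rL by sign, most by little (median -0.08). Of the 46 members, 4 were lower and 1 was higher in 4T1-mCh/rL than in 4T1-GFP/fL, where 6.63% of all genes were lower and 6.21% higher. Srsf5 was lower by the most, reading 9.60, 9.60, 9.69 and 9.73 in 4T1-mCh/rL and 9.92, 10.03, 10.05 and 10.24 in 4T1-GFP/fL (-0.40, SE 0.06, adjusted p = 0.00723 by limma with plate as a term). Srsf4 (-0.26, adjusted p = 0.0159), Hnrnpd (-0.26, adjusted p = 0.0239) and Snrnp200 (-0.19, adjusted p = 0.0347), a U5 helicase gene, were also lower, and Tra2a (0.19, adjusted p = 0.0375) was higher. Within plates the Srsf5 difference was -0.43 and -0.37. Fewer calls were made when any 1 array was left out (between 1 and 3 members). Srrt differed by -0.06 on each plate.

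Other genes of the pathway, from lists that leave out the members, moved in part with them. Of 57 further snRNP and spliceosome genes, 45 were lower and 1 higher in AxLN tumor 2 day 7 (29.2% and 24.3% of all genes). The counts were 40 and 1 in AxLN tumor 2 day 14 (26.1% and 24.6%) and 33 and 4 in AxLN tumor 1 day 7 (25.6% and 22.0%). In AxLN-LuM 5 day 14 they were 36 and 9 (26.7% and 35.6%). In AxLN-LuM 1 day 43 the order was turned, with 22 higher and 5 lower (19.0% and 22.5% of all genes). Snrnp25 of the minor spliceosome (-1.01 in AxLN tumor 2 day 7, -1.18 in AxLN-LuM 5 day 14) and Lsm3, of the ring that binds U6 (-0.73 and -0.83), were among the 6 with the widest ranges. Of 26 further hnRNP and splicing regulator genes, 15 were lower and 6 higher in AxLN tumor 2 day 7, and 13 and 9 in AxLN-LuM 5 day 14. In both sub-clones the lower calls of this list were above the share over all genes, and the higher calls were near it. Tardbp, an RNA-binding protein also called TDP-43, was at -0.51, -0.73 and -0.67 in the 3 AxLN sub-clones used, 0.23, -0.31 and 0.19 in AxLN-LuM 1 on days 14, 36 and 43, and -1.11 in AxLN-LuM 5 day 14. Elavl1 (HuR), which stabilises AU-rich mRNA, was between -0.52 and -0.41 in AxLN and between -0.13 and 0.00 in AxLN-LuM 1.

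Of 11 other SR and SR kinase genes, 3 were higher and 7 lower in AxLN tumor 1 day 7, where 22.0% and 25.6% of all genes were. The counts were 1 and 4 in AxLN tumor 2 day 7 (24.3% and 29.2%) and 4 and 5 in AxLN tumor 2 day 14 (24.6% and 26.1%). The medians were -0.21, -0.14 and -0.15 in the same order. In AxLN-LuM 5 day 14, 7 were higher and 2 lower (35.6% and 26.7% of all genes), where 8 of the 11 SR proteins were lower. The SR protein kinases, named here after their values were seen, differed: Srpk2 was at 0.56, 0.44 and 0.59 in the AxLN sub-clones used and 0.93 in AxLN-LuM 5 day 14, and Srpk1 at -0.33, -0.34 and -0.36 and at 0.04. Esrp1 and Esrp2 drive the epithelial splicing program. Esrp1 had the widest range of the splicing genes measured (4.28), from -2.66 in MFP tumor 1 to 1.62 in AxLN-LuM 5 day 14, and was at -0.94 in AxLN-LuM 1 day 14. Esrp2 was lowest in the same pair of sub-clones, at -1.23 in MFP tumor 1 and -1.60 in AxLN-LuM 1 day 14, and was at -0.47, -0.53 and -0.49 in the AxLN sub-clones used. In both of these sub-clones the class medians of the members lay between -0.06 and 0.07. Of 7 nonsense-mediated decay genes, 3 were lower and 3 higher in AxLN tumor 2 day 7 (29.2% and 24.3% of all genes). In AxLN-LuM 5 day 14, 4 were higher and 2 lower (35.6% and 26.7% of all genes).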

How the data were processed

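Total RNA of 48 cultures was hybridised to Affymetrix Mouse Gene 2.1 ST arrays. Per the labels the authors summarised the scans by RMA in Affymetrix Expression Console, and the deposited table holds the intensity of each probe set, not log-transformed; the version and the probe summary level are not given in the sources used here. Probe sets were named through GEO's platform annotation, updated by Entrez ID to RefSeq symbols of GRCm38.p6: of 41345 probe sets, 23521 had 1 symbol, 1820 several and 16004 none. Intensities were put on a log2 scale, and the brightest probe set of a gene was kept. The first 24 and last 24 columns were taken as plates 1 and 2; 6 titles name plate 2, and all 6 are among the last 24. Each value was set against the parental arrays (mean of both lines) of the same plate, and arrays were averaged per sub-clone. Genes with a mean log2 of at least 3.11, the median of all probe sets, were tested (11565).

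All p-values are from limma (lmFit and eBayes) over all genes tested, adjusted by Benjamini-Hochberg, with calls at an adjusted p under 0.05. Sub-clones were the replicates between sites, arrays against the parental lines and between these. The number of sub-clones limits the precision, and some share a tumor number. The members and lists were chosen with earlier results of these data known. Named with values were, per class, the 5 members with the largest and the 2 with the smallest range over sub-clones, the 3 with the lowest p in each comparison between sites or lines, the member with the lowest adjusted p in each sub-clone, and a few genes of the other lists by the same measures; members outside this rule were named after their values were seen. Alternatives were another baseline, quantile normalization, no filter, all probe sets averaged, all 13 sub-clones, arrays as replicates, and each replicate left out. The fits were tested on simulated data. R 4.3.3, limma 3.58.1, Python 3.11.15, numpy 2.4.6, pandas 2.3.3 and matplotlib 3.10.9 were used.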

Additional observations from a re-analysis of the deposited data

Results flagged for a closer look

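Among 150 groups of 4 sub-clones or 4 parental arrays, 10 had a highest or lowest value that stood far from the other 3 by Dixon's criterion. Chance alone gives about 1 in 20 groups if values are independent, which values set against a shared parental mean are not. AxLN tumor 1 day 14 stood above the other AxLN sub-clones in the median of SR proteins (0.06, others -0.25 to -0.21) and in Hnrnpm, an hnRNP that binds GU-rich RNA (0.13, others -0.28 to -0.22). In Hnrnpr, AxLN tumor 2 day 14 stood below the rest (-0.23, others -0.01 to 0.03). AxLN-LuM 5 day 14 stood below the other AxLN-LuM sub-clones in Hnrnpa0 (-0.97, others 0.03 to 0.21) and in Snrnp70 (-1.01, others -0.09 to 0.07). AxLN-LuM 1 day 14 was above them in Sf3a2 (0.04, others -0.26 to -0.23), and AxLN-LuM 1 day 43 below them in Sf3b3 (-0.33, others 0.02 to 0.08). Srsf11 had 1 array apart in each parental line (-0.12 against 0.06 to 0.10 in 4T1-GFP/fL, and 0.09 against -0.08 to -0.06 in 4T1-mCh/rL). Both arrays were on plate 1 and enter the mean subtracted from each other, so these flags are not independent. Sf3a2 had 1 array of 4T1-mCh/rL at -0.03, with the others at -0.08. The titles mark AxLN tumor 1 day 14 and AxLN-LuM 5 day 14 as removed.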

How the results depend on the processing

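No alternative turned the direction of a called result, but class medians near 0 changed sign or reached 0.00: core genes in TV-LuM minus AxLN-LuM with AxLN-LuM 5 day 14 added (-0.09 to 0.01), hnRNPs in AxLN minus MFP without MFP tumor 1 (-0.07 to 0.00), SR proteins in AxLN minus MFP against the own parental line (-0.13 to 0.00) and, in AxLN-LuM 1 day 14, core genes against the own parental line or with all probe sets averaged (-0.01 to 0.01) and hnRNPs with all probe sets averaged (0.05 to -0.02). Members called, 0 between sites with sub-clones as replicates, rose when arrays were the replicates: without a replicate block to 13 for AxLN against MFP, 32 for AxLN-LuM against AxLN, 4 for AxLN-LuM against MFP, 25 for AxLN against both and 15 for TV-LuM against AxLN-LuM, to 12, 29, 2, 21 and 15 with a replicate block, and, except for AxLN-LuM against MFP (0), to 2, 9, 7 and 2 with sub-clones as a random block. Over all genes these fits called 19.0%, 29.6%, 8.67%, 28.0% and 24.8%, then 15.9%, 27.4%, 6.80%, 25.5% and 23.3%, and with the random block 0.847%, 4.60%, 0.294%, 4.27% and 2.36%. Replicate numbers did not pair the arrays: deviations correlated at a mean r of 0.008 between same-numbered arrays (165 pairs) and -0.004 between others (330 pairs). Members called between the parental lines, 5 in all, were 1 with no filter on dim probe sets and 1 to 3 with an array left out. In AxLN minus MFP, the class medians of SR proteins (-0.13) and core genes (-0.16) were 0.00 and -0.07 against the own parental line and -0.01 and -0.04 both with all 13 sub-clones and with all but AxLN-LuM 5 day 14; on plate 2 SR proteins were at -0.29 and hnRNPs at -0.17, and on plate 1 core genes at -0.08. With a sub-clone left out they ranged from -0.32 to -0.04 (SR), -0.16 to 0.00 (hnRNPs) and -0.18 to -0.12 (core). In AxLN minus the mean of both, core genes were at -0.07 and hnRNPs at -0.06 with all 13 sub-clones, -0.05 and -0.09 with all but AxLN-LuM 5 day 14; plate 2 gave -0.34 (SR) and -0.28 (core), plate 1 -0.11 (hnRNPs), and leaving out a sub-clone -0.20 to -0.10 (hnRNPs). In AxLN-LuM minus AxLN all 13 gave 0.08 (SR), 0.05 (core) and 0.08 (hnRNPs), all but AxLN-LuM 5 day 14 gave 0.10 (core) and 0.18 (hnRNPs), and all but AxLN tumor 1 day 14 gave 0.17 (hnRNPs). In AxLN-LuM minus MFP SR proteins, hnRNPs and core genes (0.14, 0.12 and 0.05) were at 0.18, 0.19 and 0.12 against the own parental line, and at 0.03, 0.04 and 0.01 with all 13 or all but AxLN tumor 1 day 14. In TV-LuM minus AxLN-LuM all 13, or all but AxLN tumor 1 day 14, gave 0.01 (core) and -0.02 (hnRNPs); plate 1 gave -0.01 (SR) and -0.04 (hnRNPs), plate 2 -0.26 (SR) and -0.21 (core). Both settings that add back 1 of the removed sub-clones were chosen after seeing the data. The causes were not tested, beyond what the settings themselves change.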
